A study of Mus musculus with 24 samples.

Results

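The libraries described here are the Nanog-cKO tet-off L-EPSCs grown with or without doxycycline (Dox). They are 4 of the 24 poly(A) RNA-seq libraries of the series, picked by their labels, with earlier results of these data known. There were 2 Dox-treated and 2 untreated libraries. L-EPSCs are mouse expanded potential stem cells kept in the medium called Liu in the labels, and the study asked how far such cells rest on the core pluripotency factors. The line, NgcKO, carries the genotype Nanog Tet-off knockin. Its endogenous Nanog alleles are null, and a Nanog transgene that Dox switches off keeps the cells going. All 4 libraries share this genotype and the L-EPSC medium, which holds LIF, CHIR99021, PD0325901, A-419259, XAV939, JNK inhibitor VIII and SB203580. The labels call the treatment of the Dox group Doxycycline and that of the other group None, and the dose and time behind the RNA libraries are not given in the labels. The same table holds the Nanog-cKO ESCs from which the L-EPSCs were converted, and the same kinds of sample (ESCs, and L-EPSCs without or with Dox) from the Oct4-cKO and Sox2-cKO tet-off lines, with 2 libraries in each group.

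Nanog is a homeodomain transcription factor of the early epiblast. Together with Oct4 (encoded by Pou5f1) and Sox2 it occupies the enhancers of genes that keep pluripotent cells undifferentiated, its own gene among them. Removal of Oct4 or Sox2 ends the self-renewal of embryonic stem cells, and removal of Nanog does not. In naive cells Nanog is also known to restrain genes of the formative state, such as Otx2, and to hold primitive endoderm genes down.

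Each value below is a normalized count, the number of reads on a gene after scaling for the depth of its library. The 4 libraries held 13842259 and 10853281 reads on genes after Dox, and 11821658 and 12329090 without it, within the range of 10807631 to 14798984 over the 18 tet-off libraries. All fold changes were computed as differences of log2(normalized count + 1), so the change of a gene with few reads is understated. A gene was called when its limma adjusted p was under 0.05 and its log2 fold change was beyond 1. The labels do not say whether the 2 libraries of a group are separate cultures, so p-values measure only the spread between libraries. No cell line without a tet-off transgene was treated with Dox, so an effect of Dox itself and an effect of lower Nanog cannot be told apart.

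Nanog was lower after Dox (ENSMUSG00000012396, chromosome 6 from 122657507 to 122664651, plus strand, NCBIM37), and a substantial part of its reads was left. The untreated libraries had 9119 and 8847 normalized counts, and the Dox-treated libraries had 3166 and 3112. The 2 groups were far apart, and replicates lay close together. The log2 fold change was -1.52 (adjusted p = 5.8e-13 by limma, SE 0.043), so that 34.9% of the untreated mean was left. An exact two-sided permutation test over 2 against 2 libraries gave p = 0.333, the smallest value this design allows. Measured in the same way, 2.72% of Pou5f1 was left in the Oct4-cKO line and 1.04% of Sox2 in the Sox2-cKO line. Only reads per gene were measured here, so reads of the transgene and any of the null endogenous alleles cannot be told apart. These reads are no measure of Nanog protein, which the study assayed by immunoblot and describes as lost in these cells after Dox. The unconverted Nanog-cKO ESCs had 14993 and 15127 normalized counts of Nanog, above both L-EPSC groups.

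The promoter of the endogenous Nanog gene is shown because Nanog was lower after Dox in the Oct4-cKO and Sox2-cKO lines. It also holds the letters of an octamer-type motif (TTTGCAT), known to be bound by Oct4, beside those of a Sox-type motif (ACAATG), known to be bound by Sox2. In the Nanog-cKO line the endogenous alleles are null and Dox switches off a transgene, so the fall of Nanog there is not set beside this sequence. The RefSeq promoter table (GRCm38.p6) lists 2 start sites for Nanog, and the 250 bases before each were searched on both strands for these motifs, which do not overlap. The sequence before the second start site, chr6:122707315-122707564 on the plus strand, is followed by that before the first of 4 listed start sites of Otx2, chr14:48667645-48667894 on the minus strand. Capitals mark the 2 motifs.
Nanog: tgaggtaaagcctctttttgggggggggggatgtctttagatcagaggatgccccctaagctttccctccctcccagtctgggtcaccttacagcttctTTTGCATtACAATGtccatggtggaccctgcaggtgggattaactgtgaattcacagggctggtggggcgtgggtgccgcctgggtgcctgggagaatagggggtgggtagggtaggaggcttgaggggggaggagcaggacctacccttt
Otx2: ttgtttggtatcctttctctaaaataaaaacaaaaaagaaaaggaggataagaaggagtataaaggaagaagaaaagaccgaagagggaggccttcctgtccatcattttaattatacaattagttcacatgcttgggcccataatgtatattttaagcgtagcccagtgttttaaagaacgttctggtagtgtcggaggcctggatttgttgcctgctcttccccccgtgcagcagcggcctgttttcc
Both motifs stood next to each other in the windows of both Nanog start sites. These windows overlap, and the pair in them is the same stretch of sequence. Neither motif was found in the window of any of the 4 Otx2 start sites. Over the same length, 4.12% of all 32851 promoters in the table held the octamer-type letters, 10.7% held the Sox-type letters and 0.642% held both. The Nanog promoter was shown partly because it holds both motifs, so these shares are given for scale and test nothing. A match is a description of the reference sequence only.

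Oct4 and Sox2 transcripts were retained. Pou5f1 (ENSMUSG00000024406) had 10949 and 10877 normalized counts in untreated and 8380 and 7726 in Dox-treated Nanog-cKO L-EPSCs, a log2 fold change of -0.44 (adjusted p = 4.4e-06 by limma, SE 0.049). Sox2 (ENSMUSG00000074637) had 4850 and 4848 untreated and 3940 and 3895 after Dox, a log2 fold change of -0.31 (adjusted p = 0.00051 by limma, SE 0.055). Neither set of values overlapped between the groups, and neither gene passed the fold threshold. In the other 2 lines the factors went down together. Nanog had a log2 fold change of -3.41 in Oct4-cKO and -3.48 in Sox2-cKO L-EPSCs, and the change in the Nanog-cKO line was smaller by 1.89 (adjusted p = 5.5e-13 by limma, SE 0.06) and 1.96 (adjusted p = 1.1e-12 by limma, SE 0.06). The Dox-treated Nanog-cKO L-EPSCs thus had more Nanog reads than the Dox-treated L-EPSCs of the Oct4-cKO line (691 and 726) and of the Sox2-cKO line (654 and 733). These are unlike changes, since Dox switches off the Nanog transgene itself in the Nanog-cKO line and that of another factor in the others.

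**Figure D1:**
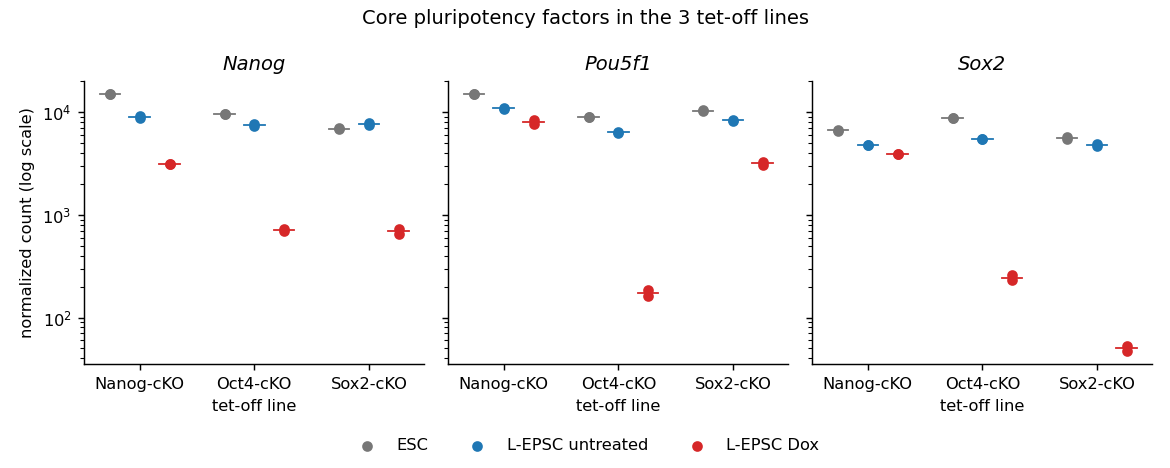
Normalized counts (log scale) of Nanog, Pou5f1 and Sox2 in each library of the 3 tet-off lines, with points for libraries, short lines for the mean of 2 libraries, and grey for ESCs, blue for untreated and red for Dox-treated L-EPSCs. In the Nanog-cKO line Nanog stayed at 3112 and 3166 after Dox and Pou5f1 and Sox2 stayed near their untreated level, whereas in the other lines Nanog went to between 654 and 733.

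Of 24007 genes tested, 672 (2.80%) were called higher and 621 (2.59%) lower in Dox-treated Nanog-cKO L-EPSCs. After Dox, 2047 genes (8.53%) were called higher and 2590 (10.8%) lower in Oct4-cKO L-EPSCs, and 1870 (7.79%) higher and 1758 (7.32%) lower in Sox2-cKO L-EPSCs. Counts of called genes in each list are to be read against these shares. By adjusted p alone, 2906 genes (12.1%) were higher and 3027 (12.6%) lower in the Nanog-cKO line. The median log2 fold change over all genes tested was 0.0. Many calls had few reads behind them: 266 of the genes called higher and 196 of those called lower had a mean under 10 normalized counts, whereas 108 and 206 had a mean of at least 100. Calls at that low level depended on the test: edgeR called 128 of those 266 genes higher and 72 of those 196 lower, against 392 of 406 and 420 of 425 with a mean of at least 10. DESeq2 fitted to the 4 libraries alone, an alternative chosen after seeing the data, called 313 genes higher and 373 lower.

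**Figure D2:**
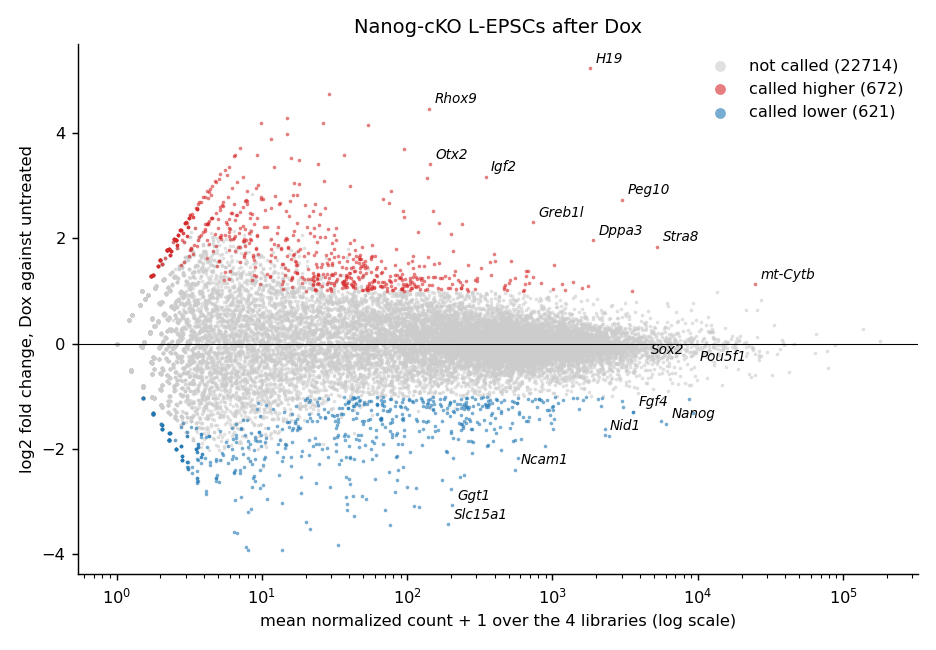
Log2 fold change of each gene tested, Dox-treated against untreated Nanog-cKO L-EPSCs, against the mean normalized count + 1 of the 4 libraries (log scale). Red and blue points are the 672 genes called higher and the 621 called lower, grey points were not called, and H19, at 5.23, stands apart at the top among well-covered genes.

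Over all genes tested, the Euclidean distance between Dox-treated and untreated libraries on the log2 scale was 128 in the Nanog-cKO line, against 104 between the Dox-treated and 104 between the untreated replicates. It was 190 in the Oct4-cKO line and 172 in the Sox2-cKO line. Among genes with a mean of at least 10, where counting noise weighs less, the distance in the Nanog-cKO line was 80.8, against 45.5 and 48.4 between replicates. Dox-treated Nanog-cKO L-EPSCs lay 135 from the ESCs on these genes and the untreated ones 129.

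The largest gain among called genes with a mean of at least 100 was in H19 (ENSMUSG00000000031, chromosome 7 from 149761434 to 149764048, minus strand, NCBIM37), an imprinted noncoding RNA expressed from the maternal allele. It had 87.3 and 98.9 normalized counts in untreated and 3447 and 3601 in Dox-treated L-EPSCs, a log2 fold change of 5.23 (adjusted p = 1e-14 by limma, SE 0.1). No value came near the other group. Its neighbour Igf2, a paternally expressed fetal growth factor, had 69.2 and 67.3 untreated and 598 and 649 after Dox, a log2 fold change of 3.17 (adjusted p = 3.5e-13 by limma, SE 0.086). Peg10, an imprinted gene of retroviral origin needed for the placenta, had 803 and 770 untreated and 5200 and 5232 after Dox. Its log2 fold change was 2.73 (adjusted p = 2e-19 by limma, SE 0.025), and Sgce, which shares the imprinted domain of Peg10, rose by 1.1 (adjusted p = 0.00099 by limma, SE 0.21), a call lost without Dox replicate 2 or untreated replicate 2.

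Of 32 imprinted genes tested, these 4 were called higher and 1 lower, against 2.80% and 2.59% of all genes tested, and the median was 0.45. A single gene called lower is near the share over all genes. The gene called lower was Nnat, which encodes the membrane protein neuronatin, with 136 and 94.8 normalized counts untreated and 43.9 and 36 after Dox (log2 fold change -1.49, adjusted p = 1.7e-05 by limma, SE 0.19). H19, Igf2, Peg10 and Sgce were also called higher after Dox in the Oct4-cKO and Sox2-cKO lines. The levels of H19 differed widely between the lines: even after Dox the Nanog-cKO L-EPSCs had fewer counts than untreated Oct4-cKO (14778 and 14797) and untreated Sox2-cKO L-EPSCs (11794 and 11731). The rise of H19 on the log2 scale was larger in the Nanog-cKO line by 1.61 (adjusted p = 1.6e-07 by limma, SE 0.14) than in the Oct4-cKO line and by 1.73 (adjusted p = 9.8e-08 by limma, SE 0.14) than in the Sox2-cKO line. Igf2 had a difference of 0.01 (adjusted p = 0.99 by limma, SE 0.12) from the Oct4-cKO line and of -0.32 (adjusted p = 0.062 by limma, SE 0.12) from the Sox2-cKO line.

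Rhox9, Rhox6 and Rhox13, homeobox genes of the Rhox cluster on the X chromosome, which is active in placenta and germ cells, rose as well. Rhox9 had 13.8 and 9.18 normalized counts untreated and 264 and 273 after Dox, a log2 fold change of 4.46 (adjusted p = 7.6e-10 by limma, SE 0.23). Rhox6 had 25.6 and 27.5 untreated and 247 and 241 after Dox, a log2 fold change of 3.15 (adjusted p = 3.5e-13 by limma, SE 0.085). Both genes went from a low to a clear signal with no overlap. Rhox13 rose by 1.12 (adjusted p = 1.2e-05 by limma, SE 0.14), so 3 of the 7 Rhox genes tested were called higher and none lower, and the median was 1.12, a list drawn up after its values were seen. Rhox1, Rhox2a, Rhox4b and Rhox10 had log2 fold changes of 0.10, 0.62, 1.41 and 0.49 and were not called (limma adjusted p = 0.94, 0.45, 0.098 and 0.79). Without Dox replicate 1 the change of Rhox13 was 0.97 and it was not called. Rhox6 and Rhox9 are close copies, with 26.6% of the 50-base stretches of the Rhox6 transcript also found in Rhox9, so the split of reads between them is uncertain.

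Beside Rhox6 and Rhox9, the trophoblast list of 22 genes held 2 more genes called higher. Plac1, an X-linked gene of the placenta, had 1 read in each untreated library and 78 and 37 reads after Dox. Krt8, a keratin of simple epithelia, had 187 and 165 normalized counts untreated and 394 and 422 after Dox, a log2 fold change of 1.21 (adjusted p = 1.4e-09 by limma, SE 0.066). Esx1 and Sct fell. Esx1, an X-linked placental homeobox gene, went from 283 and 286 to 121 and 97.8 (log2 fold change -1.38, adjusted p = 7.8e-07 by limma, SE 0.13). Sct, which encodes the hormone secretin, went from 33 and 39.8 to 19.3 and 11.2 (log2 fold change -1.24, adjusted p = 0.0036 by limma, SE 0.28). The call of Sct was lost without Dox replicate 2 (-0.87). The median of the list was 0.27. Cdx2, Elf5, Hand1 and Gata3, transcription factors that specify trophoblast, were not called. In the Oct4-cKO line 19 of the 22 genes were called higher and none lower, and in the Sox2-cKO line 17 and none.

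Formative genes moved unevenly, and Otx2 moved most. Otx2 (ENSMUSG00000021848, chromosome 14 from 49277354 to 49287319, minus strand, NCBIM37) encodes a homeodomain factor that drives cells out of the naive state. It had 22.4 and 25.5 normalized counts in untreated and 256 and 269 in Dox-treated L-EPSCs, a log2 fold change of 3.40 (adjusted p = 1.2e-12 by limma, SE 0.1). The Nanog-cKO ESCs lay between the 2 groups, at 100 and 87.4. Zic2, a zinc finger factor of the epiblast, had 381 and 374 untreated and 953 and 1009 after Dox (log2 fold change 1.37, adjusted p = 1.7e-06 by limma, SE 0.14). Grhl2, a factor of the epithelial programme, had 65 and 60.2 untreated and 166 and 148 after Dox (log2 fold change 1.31, adjusted p = 2.8e-07 by limma, SE 0.11).

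Of the 21 genes of the formative and primed list, Otx2, Zic2 and Grhl2 were called higher and Tcf15 and Lef1 lower, and the median was 0.23. Tcf15, a bHLH factor of cells primed to leave the naive state, went from 330 and 346 to 139 and 165 (log2 fold change -1.15, adjusted p = 1.4e-06 by limma, SE 0.12). Lef1, a nuclear partner of β-catenin, stood at the edge of the thresholds (log2 fold change -1.03, adjusted p = 0.049 by limma, SE 0.36), and its call was lost under 7 of the alternatives tried. Fgf5, a marker of the formative state, had no reads in any of the 4 libraries. Among genes chosen after their values were seen, Dnmt3b, a de novo DNA methyltransferase, went from 897 and 901 to 1603 and 1475 (log2 fold change 0.77, adjusted p = 5.1e-09 by limma, SE 0.048), and Lin28a, which blocks let-7 maturation, from 1411 and 1455 to 2643 and 2532 (log2 fold change 0.85, adjusted p = 7e-09 by limma, SE 0.054). Both were inside the fold threshold.

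Naive pluripotency genes shifted downward in part. Of 21 tested, 4 were called lower, 1 was called higher, and the median was -0.17; by adjusted p alone 12 were lower and 6 higher. Spic, an Ets-family factor, fell from 164 and 172 to 43.9 and 36 normalized counts (log2 fold change -2.05, adjusted p = 1.1e-06 by limma, SE 0.2). Tcl1, a co-activator of Akt, fell from 575 and 561 to 160 and 141 (log2 fold change -1.91, adjusted p = 3.9e-07 by limma, SE 0.17). Fgf4, the main FGF ligand of pluripotent cells, fell from 5244 and 4991 to 2136 and 2034 (log2 fold change -1.29, adjusted p = 1.6e-09 by limma, SE 0.072). The groups did not overlap for any of these. Nr0b1, a nuclear receptor, went from 153 and 171 to 110 and 56.2, with Dox-treated libraries that differed widely from each other, and its call (log2 fold change -1.03, adjusted p = 0.015 by limma, SE 0.29) was lost under 6 alternatives.

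Other naive factors were not called. Chosen after their values were seen, Esrrb, an orphan nuclear receptor and a known target of Nanog, had 8181 and 8093 untreated and 4376 and 4307 after Dox, a log2 fold change of -0.91 (adjusted p = 1.6e-09 by limma, SE 0.05). Klf4 had 2393 and 2517 untreated and 1227 and 1234 after Dox, a log2 fold change of -1.0 (adjusted p = 2.3e-09 by limma, SE 0.057), just inside the threshold. Zfp42, also called Rex1, had 1748 and 1892 untreated and 1521 and 1584 after Dox, a log2 fold change of -0.23 (adjusted p = 0.0042 by limma, SE 0.053). Klf5 and Tbx3, also chosen after their values were seen, went the other way, with log2 fold changes of 0.66 (adjusted p = 2.1e-07 by limma, SE 0.056) and 0.84 (adjusted p = 4.8e-10 by limma, SE 0.042). In the Oct4-cKO and Sox2-cKO lines 16 and 17 of the 21 genes were called lower and none higher.

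Dppa3 (ENSMUSG00000046323, chromosome 6 from 122576428 to 122580290, plus strand, NCBIM37), also called Stella, protects DNA methylation of the maternal genome in the zygote and marks naive and germ cells. It was the naive gene called higher. It had 779 and 765 normalized counts untreated and 2939 and 3090 after Dox, a log2 fold change of 1.96 (adjusted p = 1.5e-08 by limma, SE 0.13). The Nanog-cKO ESCs had 108 and 161, below both L-EPSC groups. In the other lines Dppa3 fell after Dox, by 2.31 in the Oct4-cKO line and by 1.71 in the Sox2-cKO line on the log2 scale.

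Some 37 of the 672 genes called higher were called lower in both other lines, and 29 of the 621 called lower were called higher in both. The share of all genes called in both other lines at once was not computed, so these counts have no background beside them. Line by line, 10.1% of the genes called higher were called lower in the Oct4-cKO line and 8.04% in the Sox2-cKO line. These are near the 10.8% and 7.32% of all genes tested. Of the genes called lower, 6.28% and 11.3% were called higher there, beside 8.53% and 7.79% of all genes tested. Otx2 was among the 37, with a change of -2.92 in the Oct4-cKO line (from 519 and 545 to 71.4 and 67.7) and of -2.47 in the Sox2-cKO line (from 463 and 454 to 77.5 and 86.7). The untreated levels of Otx2 in those lines were above the level that the Nanog-cKO line reached after Dox. The difference of effects was 6.32 (adjusted p = 1.3e-14 by limma, SE 0.14) from the Oct4-cKO line and 5.87 (adjusted p = 6e-14 by limma, SE 0.14) from the Sox2-cKO line.

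Zic2, higher in the Nanog-cKO line, had the same pattern, with log2 fold changes of -3.32 in the Oct4-cKO line (from 295 and 318 to 26.5 and 33.3) and of -2.06 in the Sox2-cKO line. Chac1, an ATF4 target that breaks down glutathione, went from 109 and 134 to 315 and 283 (log2 fold change 1.30, adjusted p = 0.007 by limma, SE 0.33), with changes of -2.81 and -1.87 in the Oct4-cKO and Sox2-cKO lines, and its call was lost without Dox replicate 1 or untreated replicate 1. Esx1 and Sct, lower in the Nanog-cKO line, were called higher in both other lines.

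**Figure D3:**
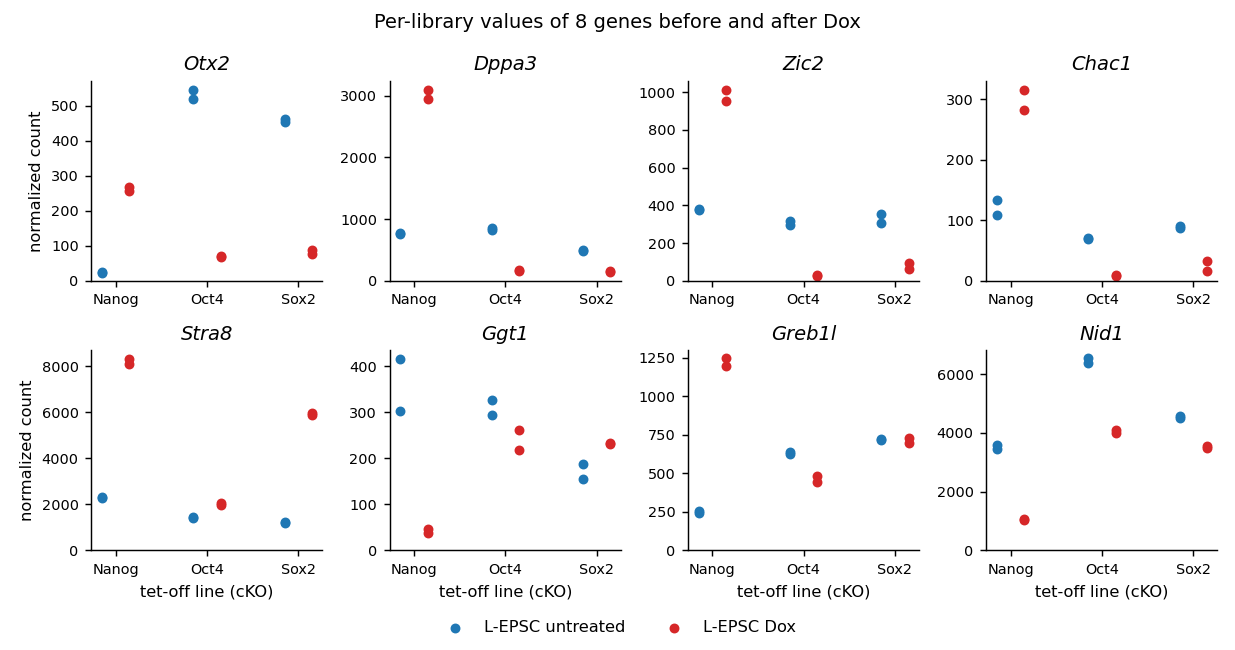
Normalized counts of 8 genes in each untreated (blue) and Dox-treated (red) L-EPSC library of the Nanog-cKO, Oct4-cKO and Sox2-cKO lines, on linear axes that start at 0, 1 point per library. Otx2, Dppa3, Zic2 and Chac1 were higher after Dox in the Nanog-cKO line and lower in the other 2 lines, and Otx2 differed between the lines before Dox as well.

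Greb1l and Hmga2 rose further in the Nanog-cKO line than in both other lines by the interaction terms. Greb1l, a gene needed for kidney development, went from 256 and 239 to 1248 and 1196 (log2 fold change 2.30, adjusted p = 1.8e-09 by limma, SE 0.13), against -0.44 and -0.02 in the Oct4-cKO and Sox2-cKO lines. Hmga2, an architectural chromatin protein of embryonic cells, went from 90.5 and 71.4 to 428 and 362 (log2 fold change 2.28, adjusted p = 4.9e-10 by limma, SE 0.11), against 0.79 and 0.19. Neither gene passed the fold threshold in another line. Mean Hmga2 before Dox was 702 in the Oct4-cKO and 600 in the Sox2-cKO line, above the 395 of the Nanog-cKO line after Dox. Mean Greb1l before Dox was 632 and 720 in those lines, below the 1220 of the Nanog-cKO line after Dox. Nrk, an X-linked kinase of the placenta, rose by 2.29 (adjusted p = 1.2e-08 by limma, SE 0.15) and by more in the other lines, at 3.43 and 3.74. Emp2, an epithelial membrane protein, rose by 2.51 (adjusted p = 8.4e-08 by limma, SE 0.2), beside 2.36 and 2.99 in the Oct4-cKO and Sox2-cKO lines.

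The deepest loss among called genes with a mean of at least 100 was in Slc15a1. Slc15a1, the proton-coupled peptide transporter PepT1, fell from 346 and 352 to 24.6 and 40.5 normalized counts (log2 fold change -3.43, adjusted p = 4.8e-08 by limma, SE 0.26). Pou2f3, a POU factor of tuft cells, fell from 207 and 220 to 27.2 and 21.4 (log2 fold change -3.09, adjusted p = 2.5e-08 by limma, SE 0.22). Ggt1, which cleaves extracellular glutathione, fell from 416 and 304 to 36.9 and 47.2 (log2 fold change -3.06, adjusted p = 6.3e-10 by limma, SE 0.16). In each case the Dox-treated libraries lay far below both untreated libraries. Gstm3, a glutathione S-transferase, fell from 194 and 204 to 23.7 and 21.4 (log2 fold change -3.09, adjusted p = 0.00011 by limma, SE 0.47), with 15.3% of its 50-base stretches shared with Gstm1 and Gstm6. Igfbp4, a binding protein of insulin-like growth factors, and Kcnh3, a potassium channel, fell by 2.54 (adjusted p = 2.4e-08 by limma, SE 0.18) and 2.50 (adjusted p = 7.7e-05 by limma, SE 0.37). The call of Kcnh3 was lost with a pseudocount of 0.1.

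Ncam1, Cntn2 and Cdhr1, which encode adhesion molecules, were among the 10 with the deepest fall of the called genes with a mean of at least 100. Ncam1, the neural cell adhesion molecule, fell from 914 and 931 to 190 and 162 normalized counts (log2 fold change -2.39, adjusted p = 2.1e-11 by limma, SE 0.09). Cntn2, a contactin of axons, fell from 302 and 295 to 43.9 and 54 (log2 fold change -2.59, adjusted p = 6.4e-09 by limma, SE 0.16). Cdhr1, a cadherin of photoreceptors, fell from 178 and 219 to 24.6 and 33.7 (log2 fold change -2.73, adjusted p = 1.1e-08 by limma, SE 0.18). All 3 fell more than in both other lines by the interaction terms, as did Ggt1 and Pou2f3. Slc15a1, Gstm3, Etv4, Kcnh3 and the protease inhibitor A2m were called lower in all 3 lines.

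**Figure D4:**
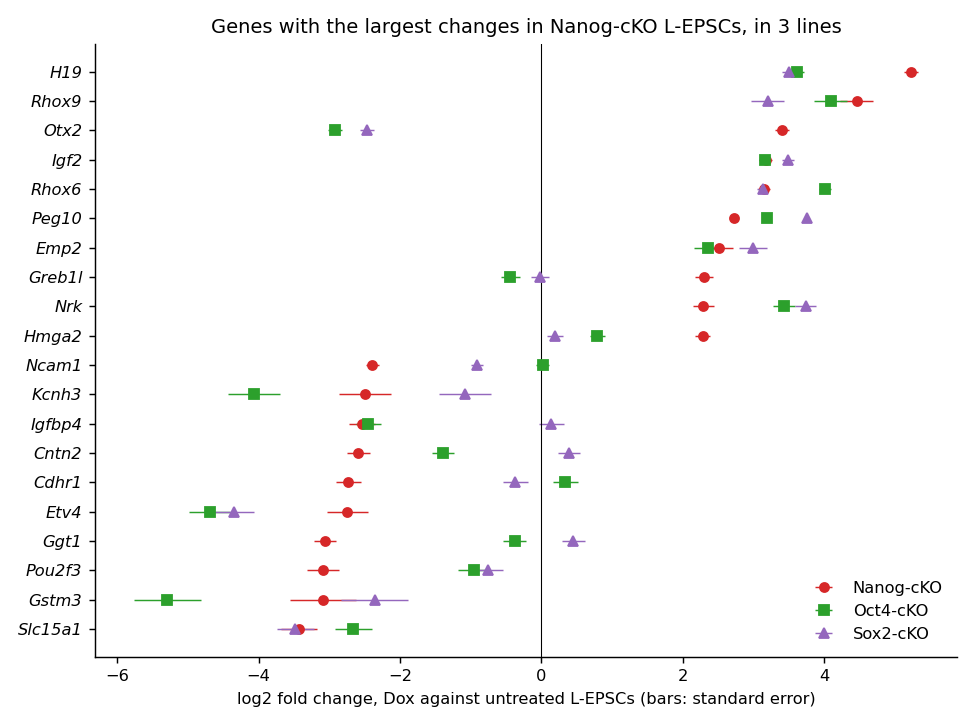
Log2 fold changes after Dox, with standard errors as bars, in Nanog-cKO (red), Oct4-cKO (green) and Sox2-cKO (purple) L-EPSCs for the 10 called genes with the largest change in each direction in the Nanog-cKO line among those with a mean of at least 100. H19, Rhox9, Igf2, Rhox6 and Peg10 rose in all 3 lines, Otx2 rose in the Nanog-cKO line and fell in the other 2, and Ggt1 fell in the Nanog-cKO line alone among the 3 by the call rule.

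Genes of the primitive streak fell in part. Among 16 primitive streak and mesendoderm genes, 5 were called lower and none higher, with a median of -0.51. Cdx1, a caudal homeobox gene that answers to Wnt, fell from 177 and 167 to 29.9 and 21.4 normalized counts (log2 fold change -2.72, adjusted p = 2.4e-05 by limma, SE 0.35). Snai1, a repressor of E-cadherin, fell from 59.6 and 74.4 to 9.66 and 11.2 (log2 fold change -2.57, adjusted p = 2.1e-07 by limma, SE 0.22). Gsc, an organizer homeobox gene, and the ligand Fgf8 fell from few counts, with log2 fold changes of -2.0 (adjusted p = 0.0047 by limma, SE 0.47) and -1.82 (adjusted p = 0.026 by limma, SE 0.56). The call of Gsc was lost without Dox replicate 1 (-1.49), and that of Fgf8 without any 1 of the 4 libraries. Sp5, a Wnt-induced repressor, had 3 and 7 reads untreated and none after Dox. T (brachyury), a gene looked up after its values were seen, had 19.2 and 13.3 untreated and 6.15 and 4.5 after Dox and was not called (limma adjusted p = 0.20).

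Of 15 Wnt targets, 5 were called lower and none higher, with a median of -0.47; Cdx1, Sp5 and Lef1 stand on this list too. Axin2, a feedback inhibitor of the pathway, fell from 135 and 116 to 52.7 and 63 (log2 fold change -1.11, adjusted p = 8.6e-05 by limma, SE 0.16), and Ccnd1, cyclin D1, from 367 and 405 to 134 and 152 (log2 fold change -1.43, adjusted p = 0.00033 by limma, SE 0.24). Among 17 ERK feedback and immediate-early genes, Etv4, an Ets factor induced by FGF signalling, fell from 375 and 322 to 45.7 and 56.2 (log2 fold change -2.75, adjusted p = 2.7e-06 by limma, SE 0.29) and Ccnd1 fell. Myc rose, from 21.3 and 10.2 to 38.6 and 38.2 (log2 fold change 1.32, adjusted p = 0.0013 by limma, SE 0.26), and the list's median was -0.23. The calls of Axin2 without Dox replicate 1 (-0.98) and of Myc without untreated replicate 2 (0.82) were lost. The fall of Etv4 was smaller than in the Oct4-cKO and Sox2-cKO lines by 1.93 (adjusted p = 0.0015 by limma, SE 0.41) and 1.6 (adjusted p = 0.0072 by limma, SE 0.41).

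The Nodal and Activin list (15 genes, median -0.01) held 1 gene called lower, Inhbb, a subunit of activin B, which went from 66 and 55.1 to 25.5 and 28.1 (log2 fold change -1.14, adjusted p = 0.00047 by limma, SE 0.2). Lefty1 had 70.3 and 82.6 untreated and 148 and 128 after Dox and was not called (limma adjusted p = 0.13), a gene added after its values were seen. None of the 13 BMP and Id genes was called, at a median of -0.21. Bmp7 had 406 and 406 untreated and 401 and 399 after Dox, and Bmpr1a 830 and 871 untreated and 1023 and 1088 after Dox (log2 fold change 0.31, adjusted p = 0.00037 by limma, SE 0.054). Among 14 LIF and STAT3 genes, at a median of -0.20, Pim1, a kinase induced by STAT3, fell from 2600 and 2928 to 1330 and 1334 (log2 fold change -1.05, adjusted p = 1.8e-10 by limma, SE 0.048), a call lost without untreated replicate 2 (-0.96).

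In the basement membrane list Nid1 and Col4a1 fell. Nid1, the linker protein nidogen, fell from 3440 and 3593 to 1056 and 1045 normalized counts (log2 fold change -1.74, adjusted p = 7.4e-14 by limma, SE 0.041). The change in the Nanog-cKO line was larger by the interaction terms than the -0.67 and -0.37 of the Oct4-cKO and Sox2-cKO lines. Col4a1, a chain of type IV collagen, fell from 1097 and 1084 to 445 and 507 (log2 fold change -1.20, adjusted p = 6.8e-10 by limma, SE 0.062). These were 2 of the 12 basement membrane genes, and 8 were lower by adjusted p alone, with a median of -0.23.

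Of 24 primitive endoderm genes tested, none was called higher and 2 were called lower, Col4a1 and Sox7, with a median of -0.17. Over all genes tested 2.80% were called higher and 2.59% lower, so the absence of a gene called higher is near that share for a list of this size. Some markers had few counts, with means of 4.6 for Foxa2, 9.25 for Sox7 and 22.1 for Sox17. Sox7, an endodermal Sox factor, had 17 and 13 reads untreated and 0 and 5 after Dox. The list's defining transcription factors Gata4, Gata6 and Sox17 had log2 fold changes of -0.26, 0.05 and -0.78, and were not called. By adjusted p alone 3 genes, named after their values were seen, were higher, Pdgfra, Dab2 and Lrp2 (log2 fold changes 0.78, 0.98 and 0.48), and 6 were lower, against 12.1% and 12.6% of all genes tested. The count of 3 is near the share over all genes.

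In the list of 21 epithelial and mesenchymal genes, Krt8, Krt19 and Zeb2 were called higher and Snai1 lower, with a median of 0.0. Krt19, a keratin, went from 148 and 155 to 325 and 307 (log2 fold change 1.06, adjusted p = 1.1e-05 by limma, SE 0.13), and Zeb2, a repressor of E-cadherin, from 22.4 and 22.4 to 55.3 and 80.9 (log2 fold change 1.54, adjusted p = 0.014 by limma, SE 0.43), a call lost without Dox replicate 2 or either untreated library. Cdh1, which encodes E-cadherin and was looked up after its values were seen, had 11533 and 11335 untreated and 6475 and 6743 after Dox, a log2 fold change of -0.79 (adjusted p = 2e-11 by limma, SE 0.03) inside the fold threshold. Fn1, fibronectin, chosen in the same way, had 16668 and 16870 untreated and 25952 and 26217 after Dox (log2 fold change 0.64, adjusted p = 5.1e-10 by limma, SE 0.032). Ifitm genes, which encode interferon-inducible membrane proteins and were listed after their values were seen, had 3 of 6 members called lower. Ifitm1 fell from 797 and 620 to 191 and 155 (log2 fold change -2.02, adjusted p = 2.1e-05 by limma, SE 0.26), Ifitm3 fell by 1.85 (adjusted p = 3.7e-10 by limma, SE 0.09) and Ifitm2 fell by 1.08 (adjusted p = 3.3e-10 by limma, SE 0.052), and 6.36% to 11.1% of their 50-base stretches are shared within the family or with a copy.

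Cholesterol synthesis and glycolysis genes had small negative changes. Of 21 cholesterol synthesis genes, 16 were lower and 1 higher by adjusted p alone, and the median was -0.55, but 1 passed the fold threshold. That gene was Dhcr7, the last enzyme of the pathway, which fell from 1836 and 1865 to 892 and 914 normalized counts (log2 fold change -1.03, adjusted p = 3.3e-10 by limma, SE 0.05). The list's medians in the Oct4-cKO and Sox2-cKO lines were -0.39 and -0.19.

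Of 19 glycolysis genes, 17 were lower and 1 higher by adjusted p alone, with a median of -0.54. In the Oct4-cKO and Sox2-cKO lines the list's medians were -0.69 and -0.39. Aldoc, an aldolase, passed the fold threshold, going from 1053 and 1119 to 531 and 523 (log2 fold change -1.04, adjusted p = 7e-08 by limma, SE 0.08), though not without untreated replicate 2 (-1.0). The summed counts of the list were 364000 in each untreated library (to 3 significant digits) and 266000 and 257000 after Dox, against 248000 and 252000 in the ESCs. Ldha, lactate dehydrogenase A, had 18505 and 18845 untreated and 11214 and 10492 after Dox (log2 fold change -0.78, adjusted p = 2.8e-11 by limma, SE 0.03), a gene chosen after its values were seen.

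ATF4 targets, genes of the integrated stress response, were higher in part. Of 20 tested, 4 were called higher, none was called lower, and 13 were higher and 3 lower by adjusted p alone, with a median of 0.29. Beside Chac1, these were the stress factor Nupr1, which went from 150 and 195 to 486 and 445 (log2 fold change 1.44, adjusted p = 1.2e-05 by limma, SE 0.18), Atf5 (log2 fold change 1.19, adjusted p = 1.3e-06 by limma, SE 0.12) and Cebpb (log2 fold change 1.19, adjusted p = 9.3e-06 by limma, SE 0.14). Nupr1 had changes of -1.05 and -0.62 in the Oct4-cKO and Sox2-cKO lines, and Cebpb rose more there, by 2.99 and 2.46. The medians of the list in these lines were -0.48 and -0.41.

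All 13 protein-coding genes of the mitochondrial genome had positive fold changes, 7 with an adjusted p under 0.05, at a median of 0.64. The list's medians in the Oct4-cKO and Sox2-cKO lines were 0.84 and 0.56. Some members had few counts: mt-Nd3, mt-Nd4l, mt-Atp8, mt-Co3, mt-Co2 and mt-Atp6 had means from 3.05 to 51.8. Of the 2 called, mt-Cytb, a subunit of respiratory complex III, had 15409 and 15916 untreated and 32955 and 35418 after Dox (log2 fold change 1.13, adjusted p = 1e-09 by limma, SE 0.06), and mt-Nd3 had 1 and 0 reads untreated and 5 and 6 after Dox. The call of mt-Nd3 was lost with edgeR, with DESeq2 and without untreated replicate 2. In the Oct4-cKO and Sox2-cKO lines mt-Cytb was called higher too, with log2 fold changes of 2.09 and 1.03. The ribosomal RNAs of the same genome, looked up after their values were seen, went the other way: mt-Rnr1 had 3189 and 2995 untreated and 1939 and 1932 after Dox (log2 fold change -0.67, adjusted p = 3.4e-09 by limma, SE 0.04), and mt-Rnr2 had a log2 fold change of -0.35 (adjusted p = 1.9e-06 by limma, SE 0.036).

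**Figure D5:**
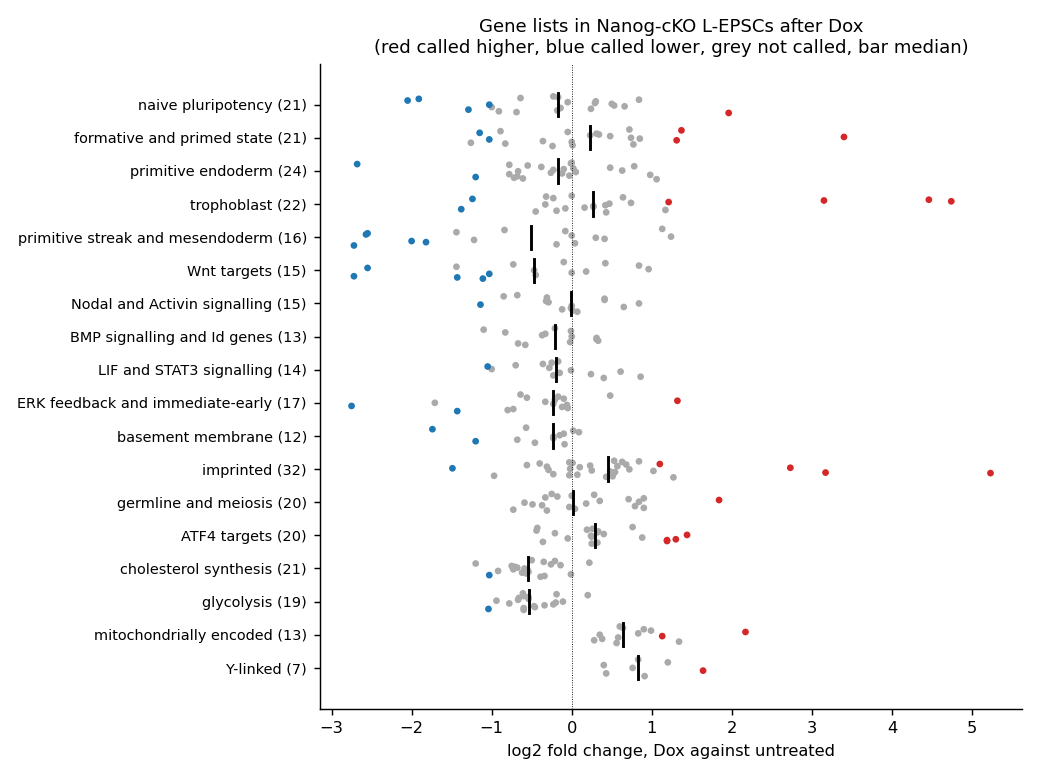
Log2 fold changes after Dox in Nanog-cKO L-EPSCs for the genes of 18 lists, with the number of genes tested in parentheses, 1 point per gene (red called higher, blue called lower, grey not called) and a black bar at the median of each list. Cholesterol synthesis (median -0.55) and glycolysis genes (-0.54) lay together below 0 with few calls, mitochondrially encoded genes (0.64) lay above 0, and the trophoblast and imprinted lists were spread by a few genes such as H19, Plac1 and Rhox9.

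Among 20 germline and meiosis genes, with a median of 0.02, 1 was called, Stra8, which is induced by retinoic acid at entry into meiosis. It had 2305 and 2280 normalized counts untreated and 8107 and 8341 after Dox, against 72.1 and 75.1 in the Nanog-cKO ESCs. The log2 fold change after Dox was 1.84 (adjusted p = 3.7e-10 by limma, SE 0.09), larger by 1.35 (adjusted p = 3e-07 by limma, SE 0.13) than in the Oct4-cKO line. Stra8 was also called higher in the Sox2-cKO line, with a log2 fold change of 2.29, from which the Nanog-cKO line differed by -0.45 (adjusted p = 0.013 by limma, SE 0.13). Dppa2, chosen after its values were seen, had 150 and 181 untreated and 296 and 322 after Dox, against 2116 and 1991 in the ESCs (log2 fold change after Dox 0.90, adjusted p = 1.2e-06 by limma, SE 0.089). The ESC comparison shares the untreated libraries, so its values are set beside those of Dox with no further comparison.

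The study's own lists were drawn up on libraries of this series, so their counts are not independent evidence. Of its 28 pluripotency genes, 3 were called higher, among them Myc and Zic2, and 3 lower (Nanog, Fgf4 and Nr0b1), with a median of -0.17, against 19 and 21 called lower in the Oct4-cKO and Sox2-cKO lines. Of its 29 gastrulation genes, Otx2 was called higher and 6 were called lower, with a median of -0.19. The 6 were Nanog, Epha2, Gpc3, Lef1, Sox7 and Wnt11. Epha2, an ephrin receptor, fell from 748 and 790 to 271 and 234 (log2 fold change -1.61, adjusted p = 1.7e-06 by limma, SE 0.16), and Gpc3, a glypican, from 1147 and 1113 to 536 and 538 (log2 fold change -1.07, adjusted p = 2.4e-08 by limma, SE 0.075).

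Of the study's 22 DNA methylation genes, 4 were called higher and none lower, with a median of 0.35. They were Grhl2, Myc, Bend3, a heterochromatin protein, which went from 117 and 82.6 to 220 and 252 (log2 fold change 1.25, adjusted p = 1.2e-06 by limma, SE 0.12), and Spi1, which had 0 and 1 reads untreated and 3 in each Dox-treated library. Without untreated replicate 2 neither Myc nor Bend3 (1.0) was called, and Spi1 lost its call under 7 alternatives. Of its 16 genes of the 2-cell stage, 1 was called lower, Usp17ld, at 4.39 and 2.25 normalized counts after Dox against 9.59 and 11.2, and 50.4% of its 50-base stretches are shared with close copies. The 2-cell list's summed counts were 316 and 336 untreated and 270 and 274 after Dox.

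Few cell cycle and p53 genes were called. Of 31 cell cycle genes, with a median of -0.17, Ccnd1 was called lower and Myc higher, 1 gene in each direction beside 2.59% and 2.80% of all genes tested. By adjusted p alone 16 were lower and 6 higher, beside 12.6% and 12.1%. Of 15 p53 targets, with a median of -0.01, Pmaip1, the BH3-only protein Noxa, fell from 1245 and 1250 to 601 and 591 (log2 fold change -1.06, adjusted p = 3.1e-06 by limma, SE 0.11). Of 10 neural genes, with a median of 0.14, Tubb3, a neuronal tubulin, fell from 1343 and 1470 to 645 and 596 (log2 fold change -1.18, adjusted p = 0.00017 by limma, SE 0.19).

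All 7 Y-linked genes tested had positive fold changes, with a median of 0.83, a list drawn up after their values were seen. Kdm5d, a histone demethylase, was called, going from 69.2 and 63.2 to 205 and 212 (log2 fold change 1.64, adjusted p = 0.0046 by limma, SE 0.39), and the ESCs had 0 and 1.12. Its call was lost with a pseudocount of 0.1. The summed counts of the Y-linked list were 381 and 352 in ESCs, 2660 and 2670 in untreated L-EPSCs and 4120 and 4490 after Dox. The share of cells that carry a Y chromosome and the RNA per cell cannot be told apart in these bulk libraries.

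Among genes with a mean of at least 50, the median log2 fold change was between -0.067 and 0.065 on each of the 19 autosomes. It was 0.121 over 373 genes of the X chromosome, 0.908 over 5 genes of the Y chromosome and 0.565 over 11 mitochondrial genes. Xist, the RNA that silences an X chromosome, looked up after its values were seen, had 1 and 6 reads untreated and 32 and 29 after Dox. Its antisense partner Tsix had 40.5 and 33.6 normalized counts untreated and 40.4 and 30.4 after Dox. The strand setting of the counting is not stated, so reads of the 2 overlapping genes cannot be told apart.

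Markers of fibroblasts and macrophages were followed as signs of other cells. Feeder cells are mouse embryonic fibroblasts, and the study's methods describe several passages of EPSCs without feeders before RNA-seq. The summed counts of 14 fibroblast markers were 682 and 760 untreated and 618 and 492 after Dox. Fbn1, Pdgfrb and Thy1 had the highest means (214, 187 and 73.7). Col3a1, Postn, Acta2, S100a4 and Mmp3 had means of at most 1.19. Thy1, a surface protein of fibroblasts that other cells also carry, fell from 130 and 120 to 21.1 and 23.6 (log2 fold change -2.43, adjusted p = 9.4e-06 by limma, SE 0.29), and Col6a2, a collagen chain, went from 11.7 and 12.2 to 29.9 and 29.2 (log2 fold change 1.24, adjusted p = 0.046 by limma, SE 0.43). Of 9 macrophage markers, summed to 458 and 468 untreated and 251 and 252 after Dox, Cd68, a lysosomal protein, fell by 1.18 (adjusted p = 9.1e-09 by limma, SE 0.076). Itgam rose from 7.46 and 6.12 to 48.3 and 42.7 (log2 fold change 2.58, adjusted p = 0.00035 by limma, SE 0.44). Cd68, with a mean of 326 normalized counts, made up most of the sum. Ptprc, Adgre1, Tyrobp and Lyz2 had means of 0.0. Csf1r, Fcer1g and Spi1 had means of 0.729, 2.22 and 1.76, and Spi1 was called higher at this low level. The fall of the sum is thus mainly that of Cd68. The part of feeder cells in any other result was not tested.

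The genes that changed in the Nanog-cKO line were compared with those of the lines in which fewer reads of the factor switched off were left. Of the 672 genes called higher, 218 were also called higher in the Oct4-cKO line (32.4% of the Nanog-cKO list and 10.6% of the Oct4-cKO list), and 212 in the Sox2-cKO line (31.5% and 11.3%). Over all genes tested, 8.53% and 7.79% were called higher in the Oct4-cKO and Sox2-cKO lines, beside the shares of the Nanog-cKO list. The shares of the Oct4-cKO and Sox2-cKO lists stand beside 2.80% of all genes, called higher in the Nanog-cKO line. In all 3 lines 157 genes (23.4%) were called higher. Of the 621 genes called lower, 279 were also lower in the Oct4-cKO line (44.9% of the Nanog-cKO list and 10.8% of the Oct4-cKO list). In the Sox2-cKO line 223 were also lower (35.9% and 12.7%). The shares of the Nanog-cKO list stand beside 10.8% and 7.32% of all genes, called lower in the Oct4-cKO and Sox2-cKO lines. Those of the Oct4-cKO and Sox2-cKO lists stand beside 2.59% of all genes, called lower in the Nanog-cKO line. In all 3 lines 182 genes (29.3%) were called lower. The share of all genes called alike in both other lines was not computed, so the counts for all 3 lines have no background beside them. The lines share no libraries, but they differ in their ESC of origin as well as in the factor removed.

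The effect of Dox differed from that in the Oct4-cKO line for 3545 genes (14.8%) and from that in the Sox2-cKO line for 2714 genes (11.3%). Of the genes called higher in the Nanog-cKO line, 170 differed from both other lines, 147 of them by a larger rise or a rise against a fall or no change. Of the genes called lower, 172 differed from both, 124 of them toward lower values in the Nanog-cKO line. The share of all genes that differed from both lines at once was not computed. The Nanog reads left after Dox, the line and the factor removed vary together in this comparison and cannot be told apart.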

How the data were processed

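Poly(A) RNA of tet-off ESCs and L-EPSCs was sequenced by the study with the Universal Plus mRNA-Seq kit. The submitters' processing notes name Trim Galore 0.6.4, STAR 2.7.9a, HTSeq 0.11.2, DESeq2 and the NCBIM37 (mm9) build. The deposited values are a signal per gene, which the authors obtained from gene counts by scaling every library with a DESeq2 size factor. Within the tet-off data, all 18 columns had 100% of values that came out as whole numbers of reads (tolerance 0.1 read), so whole reads were recovered for the count tests. The table of J1 cells was not used here. Of 25476 genes listed, the 24007 that had 2 or more reads over the table were tested, 23129 of the listed genes have a symbol, and positions of 25259 were taken from the NCBIM37 annotation.

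Differences were tested with limma (version 3.58.1, R 4.3.3). The model was fitted to log2(normalized count + 1) of all 18 libraries at once, with an intensity trend in the variance prior, followed by Benjamini-Hochberg adjustment over all genes tested. Calls needed a log2 fold change beyond 1 together with an adjusted p below 0.05, and 0.6, the general threshold in the study's methods, was tried as an alternative. Whether Dox acted differently in another line was tested as an interaction term of the same model. The fits were tested on simulated data with known changes, where limma, unlike edgeR and DESeq2, also called unchanged genes, nearly all with a mean under 10.

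The genes named were Nanog, Pou5f1 and Sox2, the 10 called genes with the largest change in each direction among those with a mean of at least 100, the called members of each gene list (at most 6, or the 2 most abundant where none was called), and the 5 in each direction called in all 3 lines or differing from both other lines. Other genes are said to be chosen after their values were seen. The libraries, lists and tests were chosen with earlier results of these data known, and 3 lists (Y-linked, Rhox and Ifitm genes) were added after values were seen. A few genes that met this rule are not reported here. Of 107 named genes, 66 were matched by symbol to the RefSeq promoter table (GRCm38.p6). Reads shared between genes were judged by 50-base stretches of coding transcripts. Alternatives were edgeR 4.0.16 and DESeq2 on recovered reads, other scalings, filters, pseudocounts and samples, the replicate number as a block, and each of the 4 libraries left out in turn.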

Additional observations from a re-analysis of the deposited data

Results flagged for a closer look

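Each gene here had a Dox effect in the Nanog-cKO line that differed from that in both other lines by limma's interaction term. Values are the log2 fold change in the Nanog-cKO line minus that in the Oct4-cKO line and then in the Sox2-cKO line, and the smallest and largest adjusted p over them were 1.3e-14 and 0.0072. The difference for Nanog itself was 1.89 and 1.96. Dox switches off a Nanog transgene in the Nanog-cKO line and a transgene of another factor in the others, so these changes of Nanog are unlike in kind.

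Some genes went up in the Nanog-cKO line and down in the others. Their differences were 6.32 and 5.87 for Otx2, 4.70 and 3.44 for Zic2, 4.27 and 3.68 for Dppa3, and 4.12 and 3.18 for Chac1. Esx1, at -2.62 and -3.04, and Sct, at -3.81 and -3.11, went the opposite way. Each was beyond both thresholds in all 3 lines.

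Greb1l (2.74 and 2.32), H19 (1.61 and 1.73) and Hmga2 (1.49 and 2.09) rose more on the log2 scale in the Nanog-cKO line, and Nrk rose less (-1.14 and -1.45). H19 and Hmga2 after Dox in the Nanog-cKO line were still below their untreated levels in the other lines. Cdhr1 (-3.07 and -2.37), Cntn2 (-1.21 and -2.98), Ggt1 (-2.68 and -3.51) and Pou2f3 (-2.13 and -2.33) fell further, whereas Etv4 fell less (1.93 and 1.6).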

How the results depend on the processing

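The log2 fold change of Nanog was -1.52 in each whole-set alternative and -1.54 to -1.49 when 1 of the 4 libraries was left out, and the call stayed. The counts of called genes stayed within 1.5 times of their value under every alternative listed in the methods but the fold threshold. Leaving out 1 library gave 563 to 677 genes higher and 477 to 596 lower, and 3267 to 3399 and 2500 to 2631 genes whose effect differed from the Oct4-cKO and Sox2-cKO lines. A threshold of 0.6 gave 1240 genes higher, 1146 lower, and 5414 and 4383 that differed. DESeq2 on the 4 libraries alone, chosen after seeing the data, gave 313 higher and 373 lower, and DESeq2 on all 18 gave 552 and 545; the cause of the lower counts was not tested. The distance of Dox-treated from untreated libraries was 80.808 with a mean of at least 10, which follows from fewer genes, and the median of the X chromosome was then 0.162. With a replicate block 671 genes were higher and 614 lower. Same-numbered Dox-treated and untreated libraries did not deviate together (correlation -0.01641), so the numbers do not pair the libraries.

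Of the 78 called genes named beside Nanog, 55 kept their call under every alternative and 23 lost it under at least 1, none with a change of direction. The block took the calls of Lef1 and Spi1. Leaving out 1 Dox-treated library took 9 or 11 calls, and leaving out 1 untreated library 10 or 15. Aldoc, Bend3, Myc and Pim1 lost the call without untreated replicate 2 alone (log2 fold changes -1.0, 1.0, 0.82 and -0.96), Axin2, Gsc and Rhox13 without Dox replicate 1 (-0.98, -1.49 and 0.97), Sct without Dox replicate 2 (-0.87), and Kcnh3 and Kdm5d with a pseudocount of 0.1 (-2.51 and 1.65). Lef1 and Spi1 lost it under 7 alternatives, Nr0b1 and Usp17ld under 6, Fgf8 and Col6a2 under 5, Wnt11 under 4, and Sox7, Sp5, Zeb2 and mt-Nd3 under 3. Tsix, not called, changed sign without Dox replicate 2 or untreated replicate 1 and ranged from -0.27 to 0.13 over the libraries left out. Genes with a few reads per library were limited by depth.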
